A study of Mus musculus with 6 samples.

Results

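Notch receptors, ligands and targets were followed in astrocytes from mice given quinpirole. The list held 10 genes, taken by symbol from the 17193 genes of the expression table, and each had a row. They were the receptors Notch1, Notch2 and Notch3, the ligands Jag1 and Dll1, the DNA-binding factor Rbpj, and the targets Hes1, Hes5, Hey1 and Hey2. The list was chosen by the FPKM values of Notch2, which were lower after quinpirole, so the values of Notch2 are given as a description with no test. The question for the other 9 genes was whether they moved with it.

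RNA was sequenced from brain astrocytes of wild-type C57BL/6 mice aged 3 months, isolated with anti-ACSA-2 microbeads, with 3 mock libraries and 3 quinpirole libraries. Quinpirole is a dopamine receptor agonist selective for the D2 family, and it was used to ask what that signal changes in astrocyte transcription. The dose and duration for the sequenced mice are not given in the sources used here. The labels do not say whether each library came from a separate mouse, so p-values measure only the spread between these libraries, which may be technical.

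Notch receptors sit in the cell membrane and are activated by Delta and Jagged ligands on neighbouring cells. Cleavage by an ADAM protease and then by gamma-secretase frees the intracellular domain, which enters the nucleus, binds Rbpj and turns on the repressor genes of the Hes and Hey families. In the brain the pathway keeps neural progenitors undifferentiated and favours the astrocyte fate, and Notch2 and Notch3 are also known from glia and from the mural cells of vessels, respectively.

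The receptor promoters are shown first because the receptor genes were lower in each quinpirole library than in each mock library, and the promoters of Hes5 and Hey2 because their genes are Notch targets. Each run is the 250 bases before a RefSeq transcription start in GRCm38.p6, written 5′ to 3′ on the gene's own strand. For Notch1 (chr2:26503823-26504072, minus strand), Notch2 (chr3:98013288-98013537, plus strand) and Notch3 (chr17:32166891-32167140, minus strand), capitals mark GGGCGG, the GC box known to be bound by the Sp family, on either strand. For Hes5 (chr4:154960673-154960922, plus strand) and Hey2 (chr10:30842784-30843033, minus strand), capitals mark TGGGAA, the core of the sequence Rbpj is known to bind, on either strand.
Notch1: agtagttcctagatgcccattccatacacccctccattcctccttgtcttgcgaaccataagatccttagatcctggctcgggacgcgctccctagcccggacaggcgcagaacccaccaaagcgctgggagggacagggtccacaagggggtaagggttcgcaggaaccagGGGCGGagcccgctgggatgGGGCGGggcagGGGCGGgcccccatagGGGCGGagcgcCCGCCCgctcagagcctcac
Notch2: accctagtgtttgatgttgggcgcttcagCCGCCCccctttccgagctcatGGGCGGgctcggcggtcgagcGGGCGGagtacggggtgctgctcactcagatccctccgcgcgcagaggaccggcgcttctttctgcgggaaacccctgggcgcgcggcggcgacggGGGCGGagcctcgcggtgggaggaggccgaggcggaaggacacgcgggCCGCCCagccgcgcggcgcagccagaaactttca
Notch3: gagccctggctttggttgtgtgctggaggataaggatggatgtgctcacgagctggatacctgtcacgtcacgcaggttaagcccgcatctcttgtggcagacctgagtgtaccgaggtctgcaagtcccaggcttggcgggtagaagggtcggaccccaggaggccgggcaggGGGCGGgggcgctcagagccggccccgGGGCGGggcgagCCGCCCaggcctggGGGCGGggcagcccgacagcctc
Hes5: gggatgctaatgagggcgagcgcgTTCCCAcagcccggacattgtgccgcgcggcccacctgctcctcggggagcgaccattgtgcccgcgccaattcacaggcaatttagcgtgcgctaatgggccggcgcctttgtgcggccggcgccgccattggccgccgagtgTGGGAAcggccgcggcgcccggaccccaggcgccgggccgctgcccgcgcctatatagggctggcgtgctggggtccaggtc
Hey2: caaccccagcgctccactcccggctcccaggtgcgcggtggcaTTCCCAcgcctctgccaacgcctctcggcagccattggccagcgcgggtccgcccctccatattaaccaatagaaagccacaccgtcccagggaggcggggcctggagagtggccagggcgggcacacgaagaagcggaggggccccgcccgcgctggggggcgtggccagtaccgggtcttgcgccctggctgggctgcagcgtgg

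GGGCGG occurred 5 times in the Notch1 window, 5 times in the Notch2 window and 4 times in the Notch3 window, and at least once in 32.7% of all 32851 promoter windows. The window of Hey2 also held GGGCGG, with 3 occurrences, whereas those of Jag1, Dll1, Rbpj and Hes5 held none. TGGGAA was present in 21.6% of all windows. It lay 226 and 82 bases before the start in Hes5 and 207 bases before it in Hey2, and Rbpj held it as well, 2 times in 1 of its windows and once in the other. It was in neither the receptor windows nor those of Jag1 and Dll1. The N box CACNAG, a sequence Hes repressors are known to bind, was found in 36.7% of all windows, once in Notch1, once in Notch2 and 2 times in Notch3. These matches describe letters and not binding. In GENCODE M21 the Notch1 window is intronic to longer transcripts of the gene except for its last bases, the windows of Notch2 and Hey2 end inside the first exon, the Notch3 window lies upstream of the gene, and the Hes5 window overlaps an exon of Gm20421 on the other strand. No window for Hes1 or Hey1 was read.

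Expression is given as FPKM, fragments per kilobase of transcript, scaled to the number of mapped fragments, which is already divided by length and depth. The depth estimated from the steps between low FPKM values was 22300000 to 27700000 fragments per library. All 10 astrocyte markers had a mean of at least 1 FPKM, with Gfap, the astrocyte intermediate filament, at 482 to 560 in the 6 libraries. All 8 microglial and 5 of 6 ependymal markers also passed this level. So did 4 of 8 oligodendrocyte, 1 of 4 oligodendrocyte precursor, 3 of 8 endothelial and 3 of 9 neuronal markers. The summed markers were 1456 to 1621 FPKM in mock and 1456 to 1482 FPKM in quinpirole libraries for astrocytes, 665 to 703 and 707 to 770 FPKM for microglia, and 97.0 to 101.7 and 105.4 to 112.6 FPKM for neurons. Slc1a2, the astrocyte glutamate transporter, and Atp1b2, a sodium pump subunit, were lower after quinpirole (adjusted p = 0.0297 and 0.0382), and the neuronal gene Stmn2 was higher (adjusted p = 0.0322). Their part in the levels of the Notch genes was not tested. In bulk RNA, fewer cells of a type and less RNA per cell cannot be told apart.

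The receptors were lower in every quinpirole library than in every mock library. Notch2, on chr3:98013527-98150361, was measured at 28.9, 29.5 and 27.1 FPKM in the mock libraries and at 19.8, 17.2 and 19.4 FPKM in the quinpirole libraries. The mean was 28.5 ± 1.26 FPKM in mock and 18.8 ± 1.40 FPKM in quinpirole astrocytes (SD, n = 3 each), a difference of -34.1%. On the log2(FPKM + 1) scale the difference was -0.58 (SE 0.06), and it lay between -0.61 and -0.52 when any 1 library was left out. These are the values that chose the list.

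Notch1, the receptor best known for keeping neural progenitors undifferentiated, lies on chr2:26457903-26516663. Its levels were 29.5, 29.4 and 27.5 FPKM in mock and 20.3, 18.0 and 20.4 FPKM in quinpirole libraries. The groups did not overlap. For Notch1 as for Notch2, mock 3 was the lowest mock library and quinpirole 2 the lowest quinpirole library. Notch1 fell from 28.8 ± 1.15 to 19.6 ± 1.35 FPKM (SD, n = 3 each), a log2 fold change of -0.54 (SE 0.06, adjusted p = 0.0215 by limma over all 12255 genes with a mean of at least 1 FPKM). The direction held without any 1 library, but the adjusted p was 0.0690 without mock 1, 0.0905 without mock 2 and 0.0548 without quinpirole 1, and it ran from 0.0125 to 0.125 over all 18 alternatives.

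Notch3, on chr17:32120820-32166852, was the least abundant of the 3 receptors. It was measured at 8.78, 8.54 and 7.21 FPKM in mock and at 5.98, 5.80 and 6.39 FPKM in quinpirole libraries, again without overlap. Notch3 fell from 8.18 ± 0.842 to 6.06 ± 0.299 FPKM (SD, n = 3 each), with a log2 fold change of -0.38 (SE 0.08, adjusted p = 0.0335). This call was lost when mock 1 (adjusted p = 0.101), mock 2 (0.115), quinpirole 1 (0.0817), quinpirole 2 (0.102) or quinpirole 3 (0.0575) was left out, and the adjusted p ran from 0.0260 to 0.138 over all 18 alternatives. Because Notch3 is known from mural cells, the 8 mural markers were read beside it. Of these, 3 had a mean of at least 1 FPKM and Pdgfrb, the pericyte growth factor receptor, was lower (26.2 to 21.2 FPKM, adjusted p = 0.0227). The sum of the mural markers was 4796 to 5129 FPKM in mock and 5147 to 5508 FPKM in quinpirole libraries, made up mostly of the contractile genes Acta2 and Tagln. Acta2 (2590 and 2789 FPKM) and Tagln (2296 and 2480 FPKM) were higher after quinpirole and did not pass (adjusted p = 0.171 and 0.199). Vtn (0.711 and 0.457 FPKM) and Myh11 (0.762 and 0.584 FPKM) were lower, at levels not tested. The pericyte markers Rgs5, Kcnj8 and Abcc9 were at most 0.420 FPKM in any library. The part of mural cells in the level of Notch3 was not tested.

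**Figure D1:**
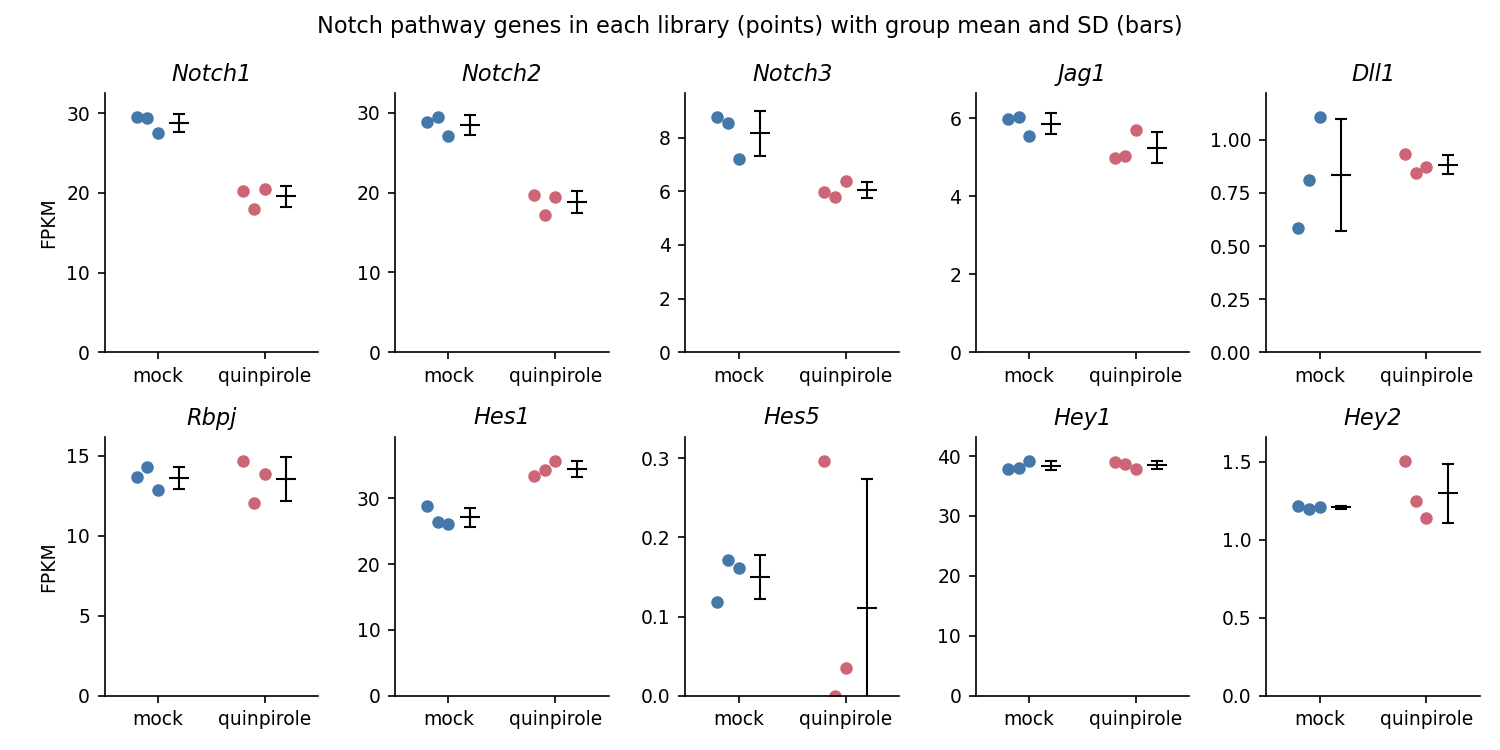
FPKM (vertical axes, each from 0) of the 10 Notch genes in the mock and quinpirole libraries, with 1 point per library and bars for the mean and SD of 3. The quinpirole points of Notch1, Notch2 and Notch3 all lie below the mock points, those of Hes1 all lie above them, and the other 6 genes overlap.

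The 4 Notch receptors together, Notch4 included, summed to 68.0, 68.3 and 62.5 FPKM in mock and to 46.7, 41.9 and 47.0 FPKM in quinpirole libraries. Notch1 made up 43.1% to 44.0% of the mock sum and 43.0% to 43.5% of the quinpirole sum, while Notch2 made up 42.5% to 43.3% and 41.0% to 42.3%. The ratio of Notch1 to Notch2 was 1.02, 0.998 and 1.02 in mock and 1.03, 1.05 and 1.05 in quinpirole libraries. The share of Notch2 was thus slightly lower in each quinpirole library than in each mock library, while that of Notch1 overlapped. These shares and the ratio rest on the Notch2 values that chose the list, so they are given as a description. Notch4, best known from endothelium, was at 0.797 FPKM in mock and 0.777 FPKM in quinpirole astrocytes, below the level tested.

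The ligands on the list did not pass the test. Jag1, on chr2:137081456-137116644, was measured at 5.99, 6.04 and 5.56 FPKM in mock and at 5.00, 5.04 and 5.70 FPKM in quinpirole libraries. Its groups overlapped, since quinpirole 3 was above mock 3. The log2 fold change of Jag1 was -0.14 (SE 0.07, 95% interval -0.29 to 0.02, adjusted p = 0.212). Dll1, the Delta ligand on chr17:15367354-15376872, was low at 0.584, 0.812 and 1.11 FPKM in mock and 0.933, 0.844 and 0.871 FPKM in quinpirole libraries. With a mean below 1 FPKM it was not tested, and the quinpirole values all lay within the mock range.

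Rbpj, through which the receptors reach DNA, was measured at 13.7, 14.3 and 12.9 FPKM in mock and at 14.7, 12.03 and 13.9 FPKM in quinpirole libraries. Its log2 fold change was -0.01 (SE 0.08, 95% interval -0.19 to 0.17, adjusted p = 0.932), with fully overlapping groups. The gene lies on chr5:53466152-53657362. Of the 50-base words in its longest transcript, 23.8% also occur in other transcripts, among them those of the pseudogenes Rbpj-ps1 and Rbpj-ps3, so its level is uncertain. Notch1, Notch2, Notch3, Dll1, Rbpj and Hes5 also overlap annotated genes that have no row in the table. Whether strand was used in the quantification is not given in the sources used here, so reads of these partners cannot be told apart from those of the 6 genes.

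The targets did not move in 1 direction. Hes1, a repressor that Notch turns on in progenitors and glia, was measured at 28.8, 26.4 and 26.2 FPKM in mock and at 33.4, 34.3 and 35.8 FPKM in quinpirole libraries. Each quinpirole library was above each mock library, the opposite of the receptors. Hes1, on chr16:30064384-30067796, rose from 27.1 ± 1.46 to 34.5 ± 1.19 FPKM (SD, n = 3 each), a log2 fold change of 0.33 (SE 0.05, adjusted p = 0.0225). The call was lost when mock 1 (adjusted p = 0.0666), mock 2 (0.0905), quinpirole 1 (0.0590), quinpirole 2 (0.0740) or quinpirole 3 (0.0506) was left out, with a log2 fold change of 0.31 to 0.38 in these fits. The adjusted p ran from 0.0166 to 0.145 over all 18 alternatives.

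Hey1, a related repressor on chr3:8663359-8667256, was the most abundant of the 10 genes. It was measured at 37.9, 38.0 and 39.3 FPKM in mock and at 39.1, 38.6 and 37.8 FPKM in quinpirole libraries. The groups overlapped, and the 95% interval of the log2 fold change of Hey1 was -0.08 to 0.09 (adjusted p = 0.945). Within libraries, Hes1 was 0.761, 0.696 and 0.667 times Hey1 in mock and 0.856, 0.888 and 0.946 times Hey1 in quinpirole libraries. The ratio of these 2 targets did not overlap between groups, as the FPKM values of 36.9% of the genes tested did not. Since Hey1 hardly differed, the ratio repeats the difference of Hes1 and is no separate result.

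Hey2, on chr10:30832359-30842801, was near the lowest level tested. It stood at 1.22, 1.20 and 1.21 FPKM in mock and at 1.51, 1.25 and 1.14 FPKM in quinpirole libraries, which overlapped. The log2 fold change of Hey2 was 0.05 (SE 0.08, 95% interval -0.14 to 0.25, adjusted p = 0.687). Hes5, the target most often read as a sign of Notch activity in neural progenitors, lies on chr4:154960923-154962371. It was measured at 0.119, 0.171 and 0.161 FPKM in mock and at 0.297 and 0.0355 FPKM in quinpirole 1 and 3, and it was listed at 0 in quinpirole 2. These values stand for an estimated 0 to 10 fragments per library, and a difference was not detectable at this depth.

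In all, of the 7 genes other than Notch2 that were tested, 2 passed in the lower direction (Notch1 and Notch3), 1 in the higher direction (Hes1) and 4 in neither. Of all genes tested, 10.9% passed, 5.74% higher and 5.18% lower. The split was 704 higher and 635 lower, and with quantile normalization it was 287 and 501. Groups did not overlap for 3 genes of the list in the lower direction, Notch2 included, and for 1 in the higher direction, against 16.9% and 20.0% of the genes tested and 36.9% in either direction. Since the list came from this contrast, nothing is read from these shares.

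By level in mock astrocytes, Hey1 was followed by Notch1, Notch2 and Hes1, whose neighbouring ranges overlapped, and then by Rbpj, Notch3, Jag1, Hey2, Dll1 and Hes5, each apart from the next. After quinpirole Hes1 stood alone in the second place, below Hey1 and above Notch1 and Notch2, which still overlapped each other.

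Gene length moved with these differences and is given beside them. Over the 2445 tested genes with the shortest exonic length (102 to 2514 nucleotides) the median log2 fold change was 0.12, and 12.8% were called higher and 0.532% lower. Over the 2445 longest (7767 nucleotides and more) the median was -0.11, and 1.19% were called higher and 16.2% lower. Notch1 (14232 nucleotides), Notch2 (10782) and Notch3 (8089) belong to the longest group and Hes1 (2037) to the shortest. Rbpj (12750) also belongs to the longest group, and its log2 fold change was -0.01. When the trend with length over all genes was taken off, 2.09% of genes were called higher and 2.07% lower. Notch1 then stayed past the threshold at -0.36 (adjusted p = 0.0228), and Notch2 stood at -0.47. Notch3 at -0.31 (adjusted p = 0.0542) and Hes1 at 0.24 (adjusted p = 0.0639) kept their direction without passing. Jag1 was at -0.11, Rbpj at 0.13, Hey1 at -0.05 and Hey2 at 0.04, none of them past the threshold. The FPKM values of all genes summed to 401769 to 413730 in mock and to 425244 to 437164 in quinpirole libraries. What produced the trend with length was not tested.

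**Figure D2:**
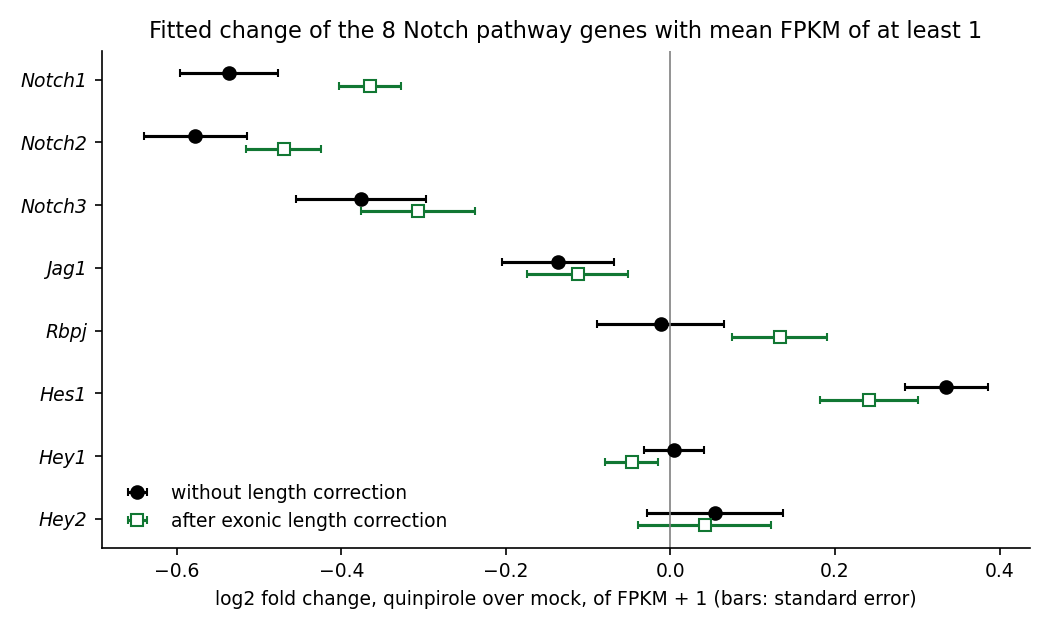
Log2 fold change of quinpirole over mock on the FPKM + 1 scale (horizontal axis) for the 8 Notch genes with a mean of at least 1 FPKM, with standard errors as bars. Filled circles are values without and open squares values with the length correction. The receptors stay left of 0 and Hes1 right of 0 in both, while Rbpj and Hey1 change side.

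**Figure D3:**
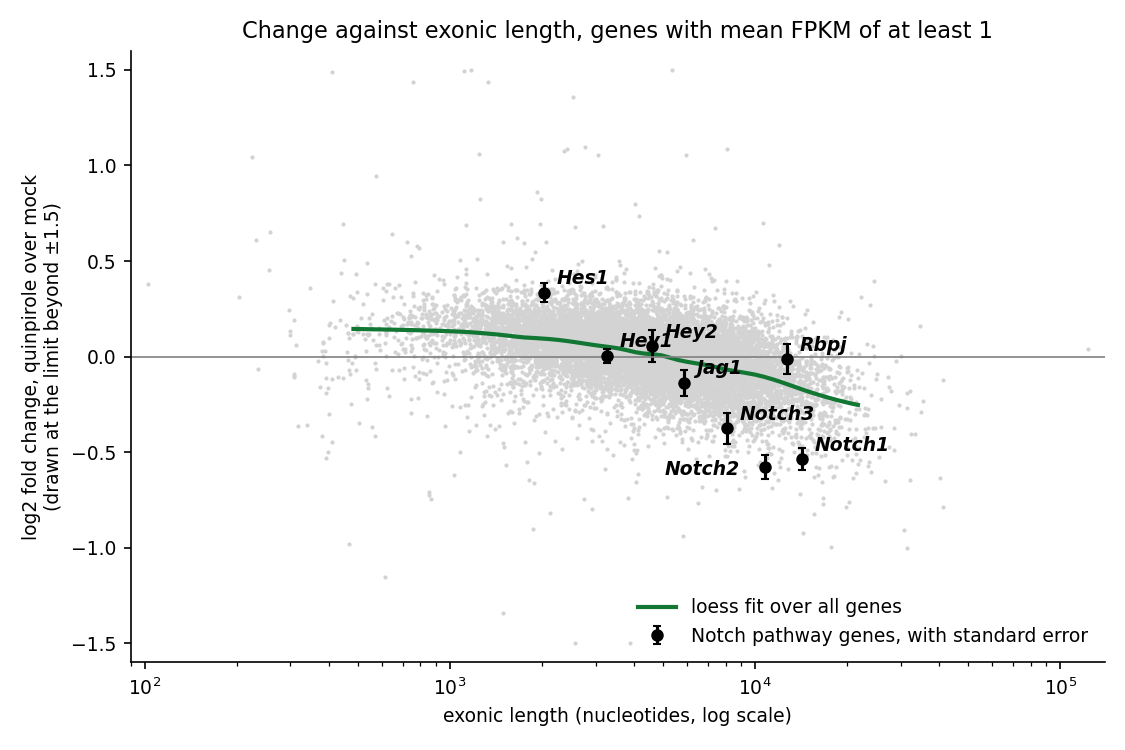
Log2 fold change (vertical axis) against exonic length in nucleotides (log horizontal axis) for the tested genes in grey, with the loess trend in green and the 8 Notch genes in black with standard errors. Notch1, Notch2 and Notch3 lie below the trend among the longest genes, and Hes1 lies above it among the shortest.

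The gene profiles most like Notch2 over the 6 libraries were those of Bod1l, Abca1, Notch1, Map1a and Celsr2, out of 12255. Likeness was the root mean square difference of log2(FPKM + 1) values after each gene's mean was subtracted, and it ranged from 0.0154 to 0.0388 for these 5. Abca1, the cholesterol exporter, went from 80.8 to 54.9 FPKM, and Celsr2, an adhesion receptor of the cadherin superfamily, from 30.0 to 19.4 FPKM. Map1a, a microtubule-associated protein, went from 21.8 to 14.8 FPKM and Bod1l from 9.41 to 6.11 FPKM. All 5 have exonic lengths of 10363 to 14232 nucleotides, near that of Notch2. Notch3 was 169th in this order, Jag1 1757th and Hes1 11816th. The order is drawn from the Notch2 values that chose the list, their fall after quinpirole included. It is a description, and nothing is read from the places of the other listed genes. The closest to Hes5 were Thrb, Pkp4, Epc2, Cntln and Gzf1, an order that rests on the few fragments of Hes5.

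Beyond the 10 genes, 79 further genes of the pathway were listed by role, of which 77 had a row (Atoh1 and Neurod4 had none) and 66 were tested. Of these, 8 fell, 2 rose and 56 passed in neither direction, and their log2 fold changes had a median of -0.05, compared with 0.02 for the whole table. Of all genes tested, 5.18% were called lower and 5.74% higher. Among the coactivators, the related acetyltransferases Ep300 and Crebbp, which the Notch complex recruits, fell, Ep300 from 13.4 to 9.42 FPKM (log2 fold change -0.47, adjusted p = 0.0225) and Crebbp from 5.80 to 4.08 FPKM (-0.42, adjusted p = 0.0298), and the other 6 of 8 coactivators, the acetyltransferases Kat2a and Kat2b among them, did not pass.

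Among 17 corepressors, 5 fell and 1 rose, against 5.18% and 5.74% of all genes tested and 16.2% and 1.19% of the 2445 longest. Spen, which holds Rbpj in a repressing complex, was measured at 18.9, 17.8 and 15.8 FPKM in mock and at 10.9, 8.69 and 11.2 FPKM in quinpirole libraries. The groups were well apart, with a log2 fold change of -0.72 (adjusted p = 0.0225). The nuclear receptor corepressor Ncor1 (-0.25, adjusted p = 0.0249), the Groucho family member Tle3 (-0.24, adjusted p = 0.0251) and the histone demethylase Kdm5a (-0.26, adjusted p = 0.0456) fell as well. Hdac2, a histone deacetylase, rose from 32.2 to 36.7 FPKM (0.18, adjusted p = 0.0279).

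Upstream of the nucleus, Psenen and Mib2 passed, where 5.74% of all genes tested were called higher and 5.18% lower. Psenen, a gamma-secretase subunit, rose from 89.7 to 101.7 FPKM (0.18, adjusted p = 0.0480), the only 1 of 10 cleavage genes to pass. Mib2, a ubiquitin ligase that acts on Notch ligands, fell from 20.7 to 18.3 FPKM (-0.17, adjusted p = 0.0491), 1 of 13 tested genes of endocytosis and turnover. No tested gene passed among the 5 glycosylation genes, the 3 other receptors and ligands or the 9 other targets. Of these targets, Nfia came nearest in the lower direction (4.59 to 3.13 FPKM, log2 fold change -0.44, adjusted p = 0.0508). Fabp7 came nearest in the higher direction (636 to 721 FPKM, 0.18, adjusted p = 0.0693). After the length correction Nfia stood at -0.33 and Fabp7 at 0.05 (adjusted p = 0.0976 and 0.327). The most abundant genes of the other roles did not pass either. Lfng, which adds sugar to Notch receptors, was at 51.3 FPKM in mock and 55.2 FPKM in quinpirole astrocytes (adjusted p = 0.210), and the Notch ligand Dner at 33.9 and 31.9 FPKM (adjusted p = 0.334). The corresponding means were 218 and 210.1 FPKM for the ubiquitin ligase Nedd4 (adjusted p = 0.367), 34.8 and 38.3 FPKM for the coactivator Snw1 (adjusted p = 0.157), 222 and 249 FPKM for the corepressor Tle5 (adjusted p = 0.0690), and 694 and 700.1 FPKM for the cyclin Ccnd1, among the other targets (adjusted p = 0.864).

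**Figure D4:**
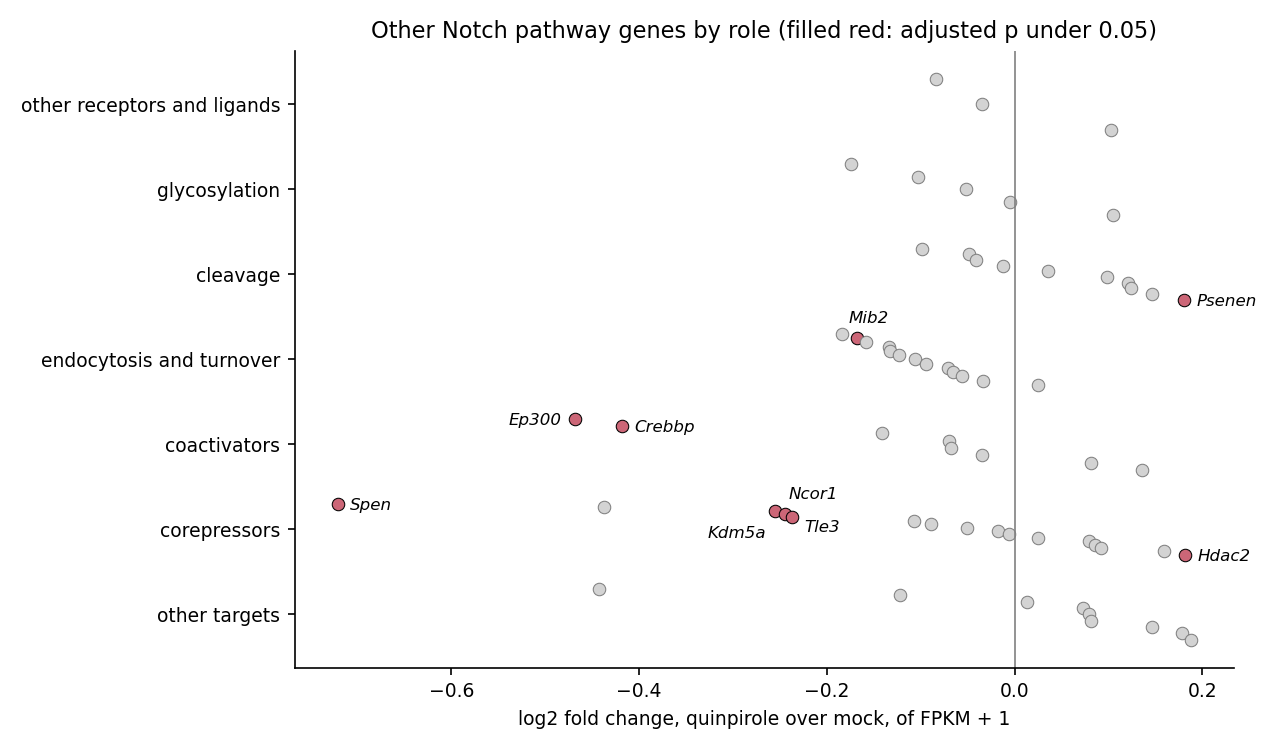
Log2 fold change of quinpirole over mock on the FPKM + 1 scale (horizontal axis) for further Notch pathway genes tested, 1 point per gene, in rows by role, with 1 corepressor and the proneural genes not drawn. Red points passed an adjusted p of 0.05. Of the 7 red points left of 0, 6 are coactivators or corepressors and 1 is Mib2, and the 2 right of 0 are Psenen and Hdac2.

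The 8 genes that fell had a median exonic length of 13175.5 nucleotides, against 2874.5 for the 2 that rose and 4825.5 for the 56 that did not pass. After the length correction, Ep300 (-0.30), Spen (-0.55) and Hdac2 (0.17) still passed, and the other 7 did not. No gene of this wider list passed when mock 1, mock 2, quinpirole 1 or quinpirole 2 was left out. Without quinpirole 3, 4 passed, and without mock 3, 7 passed.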

How the data were processed

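Polyadenylated RNA of the 6 astrocyte libraries was sequenced in paired ends by the authors, who removed adaptors and low-quality reads and mapped the rest with TopHat2 to GRCm38, the mapper and build listed in the submitters' processing notes. The deposited values were FPKM per gene and library, and the program that computed them is not given in the sources used here. Libraries were grouped by their labels. The 10 genes and all lists were chosen with earlier results of these data known.

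Ensembl identifiers were matched to symbols for 17090 of 17193 genes. RefSeq promoter windows matched 8 of the 10 genes. Positions and exonic lengths came from the GENCODE M21 annotation of GRCm38. FPKM was transformed to log2(FPKM + 1), so fold changes of low genes are understated. The 12255 genes with a mean of at least 1 FPKM were fitted in limma 3.58.1 (R 4.3.3) with a trended prior, two-sided, with Benjamini-Hochberg adjustment over all genes and a threshold of 0.05. The procedure was tested on simulated data. Length and GC corrections subtracted a loess trend (span 0.3) from each library. Named were the 10 genes, each further pathway gene past the threshold, the most abundant 1 of each role, and the 5 profiles closest to Notch2 and to Hes5. The other targets nearest the threshold in each direction were named as well. Two-sided exact permutation of 3 against 3 libraries cannot go below p = 0.1 and was not used.

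Read totals were not used here. Depth was estimated from steps between low FPKM values of genes with 1 transcript of at least 2000 nucleotides, of which 59.6% to 66.7% lay within 0.1 of a whole fragment, so it is approximate. Replicate numbers were taken as names only. A few genes that the rule for named genes would name are not reported here.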

Additional observations from a re-analysis of the deposited data

How the results depend on the processing

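Under the 18 alternatives Notch1 lay between -0.57 and -0.32 and passed in 13, Notch3 lay between -0.45 and -0.24 and passed in 8, and Hes1 lay between 0.24 and 0.38 and passed in 9. Notch2 lay between -0.61 and -0.45. All 4 kept their direction throughout. Of 143 values of the 8 genes, 14 changed sign, all for genes that did not pass. Rbpj was 0.13 with the length correction, with or without the replicate block, and 0.10 with length and GC corrections. Hey1 was -0.00343 with median ratio scaling, -0.0403 with quantile normalization, -0.0470 with the length correction, with or without the replicate block, and -0.0309 with length and GC corrections. Leaving out 1 library gave -0.0699 to 0.0645 for Rbpj, -0.00584 to 0.0206 for Hey1 and -0.0102 to 0.10 for Hey2.

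Genes passing over the table numbered 1339, and 633 without a filter on low values, 788 with quantile normalization (36.4% higher, against 52.6%), 714 without the trend (41.0% higher), 509 with the length correction and 375 with length and GC corrections. Leaving out 1 library gave 3 to 1215. Of the 9 genes other than Notch2, 3 passed in the fit reported, 1 with the length correction, 1 with length and GC corrections, and 0 to 3 without 1 library. The wider list gave 10, and 5 without a filter, 5 without the trend, 3 with the length correction, 2 with length and GC corrections, and 0 to 7 without 1 library. An unadjusted p under 0.05 was found for 3 of the 9 genes in each setting except without quinpirole 3, where it was found for 4. In the fit reported, 7 of the 9 were tested, and 3839 of all 12255 genes tested had such a p, so nothing is read from this count.

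Same-numbered libraries did not deviate together (r = 0.026, -0.066 and -0.103), and no library correlated best with its own number. The labels do not state a pairing, so the numbers were taken as names only. With so few libraries these correlations cannot show whether any were paired. With the replicate block 2 genes of the table, 0 of the 9 and 0 of the wider list passed in limma, with 3308 genes at an unadjusted p under 0.05. With the block and the length correction the counts were 0, 0 and 0, with 2723 at an unadjusted p under 0.05. Low fragment numbers limit Hes5, Dll1 and Hey2.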
